A study of Mus musculus with 6 samples.

Results

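The clustered protocadherins are the cell-surface proteins encoded by 3 gene arrays, alpha, beta and gamma, that lie one after another on mouse chromosome 18. Their rows were found by symbol, as the names Pcdha or Pcdhac, Pcdhb, and Pcdhga, Pcdhgb or Pcdhgc followed by a number. This gave 58 gene rows of the 55487 in each table: 14 alpha, 22 beta and 22 gamma. The 58 rows carry 57 symbols, because the identifiers ENSMUSG00000007440 and ENSMUSG00000102206 both bear the symbol Pcdha11, and these are named here by identifier. No row bears the symbol Pcdha10, and ENSMUSG00000007440 starts at 37005203, between Pcdha9 and the other Pcdha11 row at 37010712, so which alpha gene it stands for is not certain. The arrays were chosen on the measured difference between the 2 treatment groups, in the expected counts of each cluster and of single genes. The agonist-to-vehicle values of the members are therefore a description, without a test.

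The libraries came from mammary tumours of PyMT mice, in which polyoma middle T antigen is made under the mouse mammary tumour virus promoter in mammary epithelium. The 3 agonist libraries are from animals given DMHCA, which activates the liver X receptors, and the 3 vehicle libraries are from animals of the same model given vehicle. Both were given by mouth in Medigel cups without interruption from 6 weeks of age. All 6 libraries thus carry the middle T transgene, and each is total RNA of tumour tissue, which can hold stroma, blood vessels and leukocytes. Whether each library had a mouse of its own is not stated, and p-values therefore measure the spread between these libraries, which may be technical. The sample titles also carry a code that is shared by all agonist libraries, and a different code shared by all vehicle libraries. What these codes stand for is not known here. Because they split exactly with treatment, a difference between the treatments cannot be told apart from a difference between the codes.

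Clustered protocadherins are best known from neurons. Each alpha and each gamma gene has its own first exon and promoter, which supplies the extracellular cadherin repeats and the membrane span, and this exon is spliced to constant exons shared by the whole array, which supply the common end of the cytoplasmic tail. Beta genes are single coding exons without a constant part. In neurons a few promoters per cell are chosen, by a mechanism that uses DNA methylation, the insulator protein CTCF and cohesin, and the resulting set of proteins gives the cell a surface identity that mediates homophilic recognition and self-avoidance. The C-type genes at the end of the alpha and gamma arrays differ from the others in being expressed more evenly from cell to cell.

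On GRCm38, in the gene models of GENCODE M21, the alpha array spans chromosome 18 from 36930184 to 37187661, the beta array from 37264938 to 37524479 and the gamma array from 37661793 to 37841873, all on the plus strand. The alpha genes share constant exons of 59, 89 and 2712 bases in all 14 members. The gamma genes share exons of 59 and 89 bases in all 22 members and an exon of 1971 bases in 17. The median share of exonic bases that no other gene uses was 46.4% for alpha, 54.7% for gamma and 100% for beta. Of the counts above 0, 1.67% in the alpha array, 4.62% in the gamma array and 87.7% in the beta array were whole to within 0.005, because reads in shared exons are divided among genes by estimation. The level of a single alpha or gamma gene is therefore less certain than the sum over its array. Several members overlap antisense genes in the models. Among them, Pcdhga10 overlaps Gm26672, Pcdhb12 overlaps Gm37446, Pcdhgc3 overlaps BC037039 and Pcdha12 overlaps Gm10545. Without a stated strand setting, the reads of such a pair cannot be told apart where they overlap.

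Library totals ran from 36577451 to 42595799 expected counts. Vehicle 2 stood apart in that a single row, CT010467.1, took 5.55% of its counts, whereas the top row of every other library was the mitochondrial gene mt-Co1 with 1.75% to 2.96%. Vehicle 3 stood apart in its low stromal content, given below with the cell type markers. The labelled tissue was borne out by luminal epithelial markers: Epcam ran from 811 to 1056 expected counts per 1000000 of the library total (CPM) and Krt8 from 957 to 1514. The edgeR quasi-likelihood test over 17396 genes called 0 genes, or 0%, at an adjusted p under 0.05, and 538 genes had an unadjusted p under 0.05, 125 higher and 413 lower with the agonist. With upper-quartile scaling that split was 182 higher and 331 lower, and without vehicle 2 it was 1188 higher and 1254 lower. The limma-voom and limma-trend fits also called 0 genes. At an unadjusted p under 0.05 limma-voom gave 402 higher and 809 lower, whereas limma-trend on log2(TPM + 1) gave the opposite balance, 266 higher and 128 lower. DESeq2 called 8 genes.

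The summed expression of the alpha array was low in every library and lower with the agonist. In vehicle 1, 2 and 3 it came to 29.4, 8.21 and 9.37 CPM, and in agonist 1, 2 and 3 to 2.82, 2.31 and 2.08 CPM. The groups did not overlap, and vehicle 1 was 3.59 times as high as the lowest vehicle library. The means were 15.7 ± 11.9 CPM (SD, n = 3) with vehicle and 2.40 ± 0.378 CPM (SD, n = 3) with the agonist, a ratio 6.52-fold lower and a log2 ratio of -2.71 with an error of 1.12 from the SDs. Without vehicle 1 the log2 ratio was -1.87. Without the Pcdha11 row ENSMUSG00000007440, which held most of the alpha counts of agonist 1 and agonist 2, it was -3.51. In a bulk tumour piece, fewer cells that express a gene and less RNA per cell cannot be told apart.

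The beta and gamma sums overlapped between the groups. The beta sum was 71.6, 39.7 and 85.0 CPM with vehicle and 61.0, 40.2 and 57.5 CPM with the agonist, with means of 65.4 ± 23.2 and 52.9 ± 11.2 CPM (SD, n = 3 each). Its log2 ratio was -0.31 with an error of 0.60. Vehicle 2 and agonist 2 were the lowest of their groups for beta. The gamma sum was 117.8, 75.5 and 86.2 CPM with vehicle and 71.0, 80.4 and 58.7 CPM with the agonist, with means of 93.1 ± 22.0 and 70.1 ± 10.9 CPM (SD, n = 3 each). Its log2 ratio was -0.41 with an error of 0.41, and agonist 2 lay above vehicle 2. Both differences were within or near the spread between libraries.

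**Figure D1:**
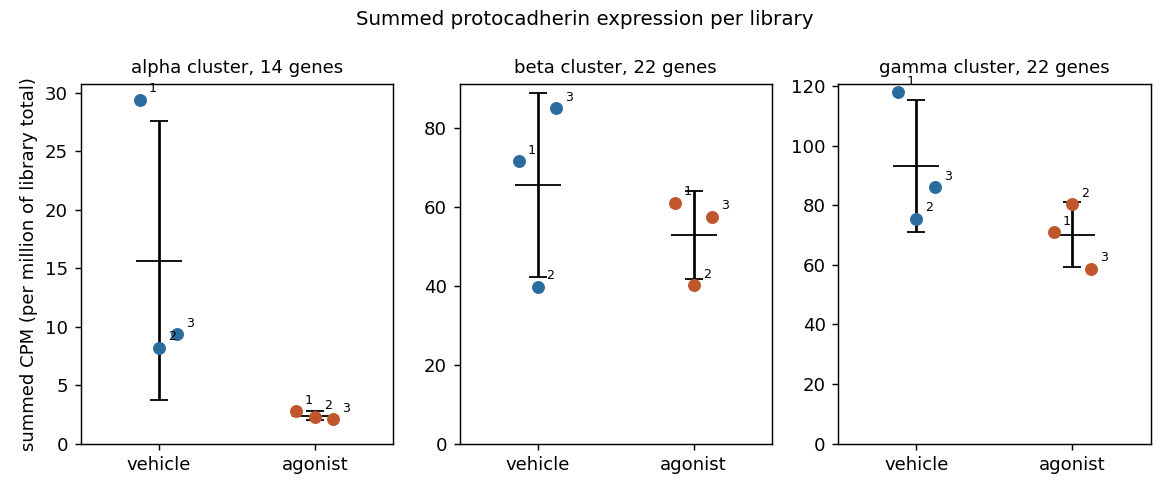
Summed CPM of the 14 alpha, 22 beta and 22 gamma genes in each library (vertical axis, from 0), with vehicle in blue and agonist in red, the replicate number beside each point, and the group mean with its SD in black. For alpha the 3 agonist points lie at 2.08 to 2.82 CPM, below the 3 vehicle points at 8.21 to 29.4, while for beta and gamma the groups overlap.

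Member by member, every one of the 3 agonist libraries lay below every vehicle library for 9 of the 58 members, and above every vehicle library for 0. Of all 17396 genes tested, 2.36% were in the first state and 5.93% in the second. Of the 29264 rows with a count in any library, the shares were 2.25% and 4.65%. The 9 members were Pcdha2, Pcdha3, Pcdha5, Pcdha6, Pcdha8, Pcdha9, Pcdha12, Pcdhb1 and Pcdhgc3. Because the arrays were picked on this difference, nothing is read from these shares. The mean CPM was lower with the agonist for 49 of 58 members. The median log2 ratio of the 58 was -0.58 when genes at 0 in a group are put at their bound. Among the 48 members that passed the filter on low counts, as all genes tested did, 39 had a lower mean, or 81.25%. The median of these 48 was -0.47. Of all genes tested, 45.5% had a lower mean, and the median was 0.04. Without vehicle 2 the agonist libraries lay below the vehicle libraries for 24 members and for 15.1% of all genes tested. The 24 were 11 alpha, 9 beta and 4 gamma. With fewer libraries the groups come apart more easily for any gene, and nothing is read from this change. Of the 58 members, 48 passed the filter on low counts.

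**Figure D2:**
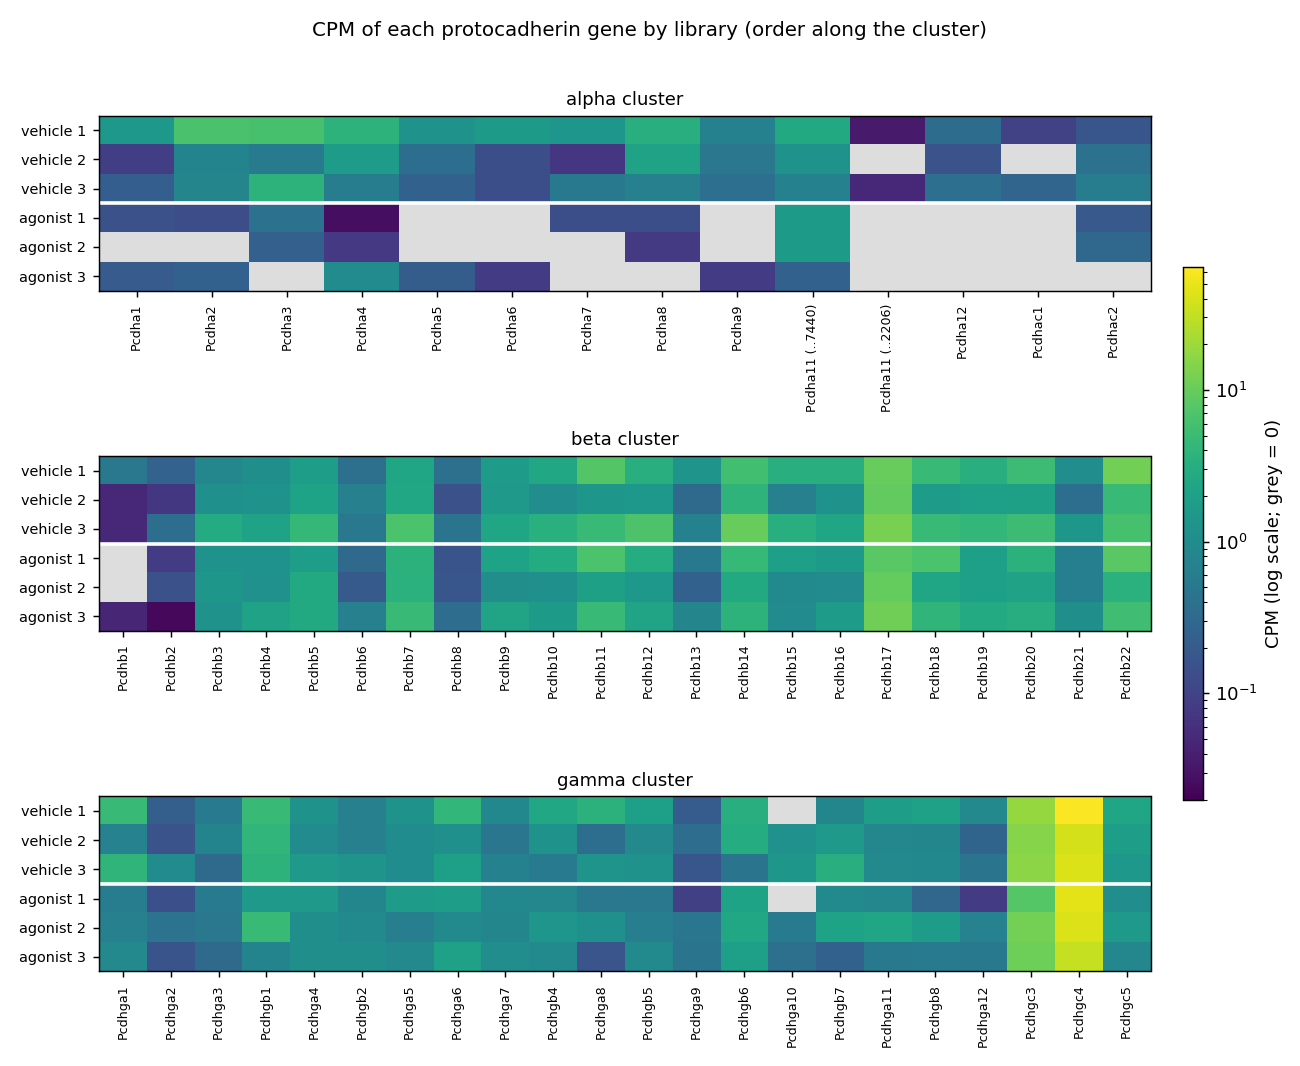
CPM of every member (columns, in order along each array) in each library (rows, vehicle above the white line and agonist below), on a logarithmic colour scale with grey for 0. Grey cells are concentrated in the agonist rows of the alpha array, where 6, 9 and 7 of 14 genes were at 0, and Pcdhgc4 is the brightest column in every library.

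The alpha array has the fewest genes of the 3. Of its genes, 13, 11 and 13 of the 14 had at least 3 counts in vehicle 1, 2 and 3, against 7, 5 and 7 in agonist 1, 2 and 3. All 14 had a lower mean with the agonist, and 12 had a log2 ratio below -1. The median log2 ratio was -3.30, with the 3 members at 0 in all agonist libraries put at their bound. For Pcdha8 the expected counts were 139, 85.0 and 27.3 with vehicle and 5.03, 3.15 and 0 with the agonist. Every vehicle library thus lay above every agonist library. The means were 2.02 ± 1.3 CPM with vehicle and 0.0720 ± 0.0690 CPM with the agonist (SD, n = 3 each), 28.1-fold lower, and the log2 ratio of -4.81 became -5.69 without agonist 1.

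Pcdha2 had 274, 30.6 and 32.3 counts with vehicle and 4.94, 0 and 10.4 with the agonist. Its ratio of means was 20.8-fold, with most of the vehicle reads in vehicle 1. The log2 ratio of -4.38 became -2.60 without vehicle 1 and -5.30 without agonist 3. Pcdha3 had 264, 22.7 and 152 counts with vehicle and 15.2, 9.46 and 0 with the agonist. The groups did not overlap, but vehicle 2 and agonist 1 differed by a small margin, and the ratio of means was 16.2-fold. Its log2 ratio of -4.02 became -3.31 without vehicle 1 and -4.90 without agonist 1. Pcdha9 was more even, with 29.6, 19.8 and 15.6 counts with vehicle and 0, 0 and 3.49 with the agonist. Its vehicle libraries were at 0.524 ± 0.158 CPM (SD, n = 3), and the ratio was 18.7-fold. Pcdha12, which overlaps the antisense gene Gm10545, had 14.7, 6.25 and 15.6 counts with vehicle and 0 in all 3 agonist libraries. Set against 3 counts over the agonist group, it was at least 11.6-fold lower.

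Not every alpha gene followed this pattern. Pcdha4 had 157, 70.7 and 25.4 counts with vehicle and 1, 3.11 and 40.8 with the agonist, so agonist 3 lay above vehicle 3. Its log2 ratio of -2.48 became -5.28 without agonist 3 and -1.72 without vehicle 1. The Pcdha11 row ENSMUSG00000007440 had 115, 50.2 and 28.7 counts with vehicle and 59.4, 65.3 and 10.4 with the agonist, and the groups overlapped. Its log2 ratio of -0.41 turned to 0.25 without vehicle 1 and to 0.06 without agonist 3. The other Pcdha11 row, ENSMUSG00000102206, had between 0 and 2.08 counts in any library. Of the genes with few counts, Pcdha5, Pcdha6 and Pcdha7 had at most 9.09 counts in any agonist library and between 2.83 and 70.7 in the vehicle libraries, and Pcdha1 had 64.1 counts in vehicle 1 and at most 9.11 elsewhere.

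The gene that led the alpha array differed from library to library on the scale of deposited TPM, which is corrected for length. Pcdha2 led vehicle 1 with 1.41 TPM, or 20.2% of the array's TPM, Pcdha4 led vehicle 2 with 0.42 TPM and Pcdha3 led vehicle 3 with 0.81 TPM. The Pcdha11 row ENSMUSG00000007440 led agonist 1 and agonist 2 with 0.33 and 0.35 TPM, which were 55.9% and 70.0% of the array, and Pcdha4 led agonist 3 with 0.26 TPM. From 7 to 9 genes made up 90% of the alpha TPM in the vehicle libraries and from 3 to 6 in the agonist libraries. As TPM are deposited to 2 decimals and the agonist sums were 0.50 to 0.59 TPM, shares in the agonist libraries are coarse.

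**Figure D3:**
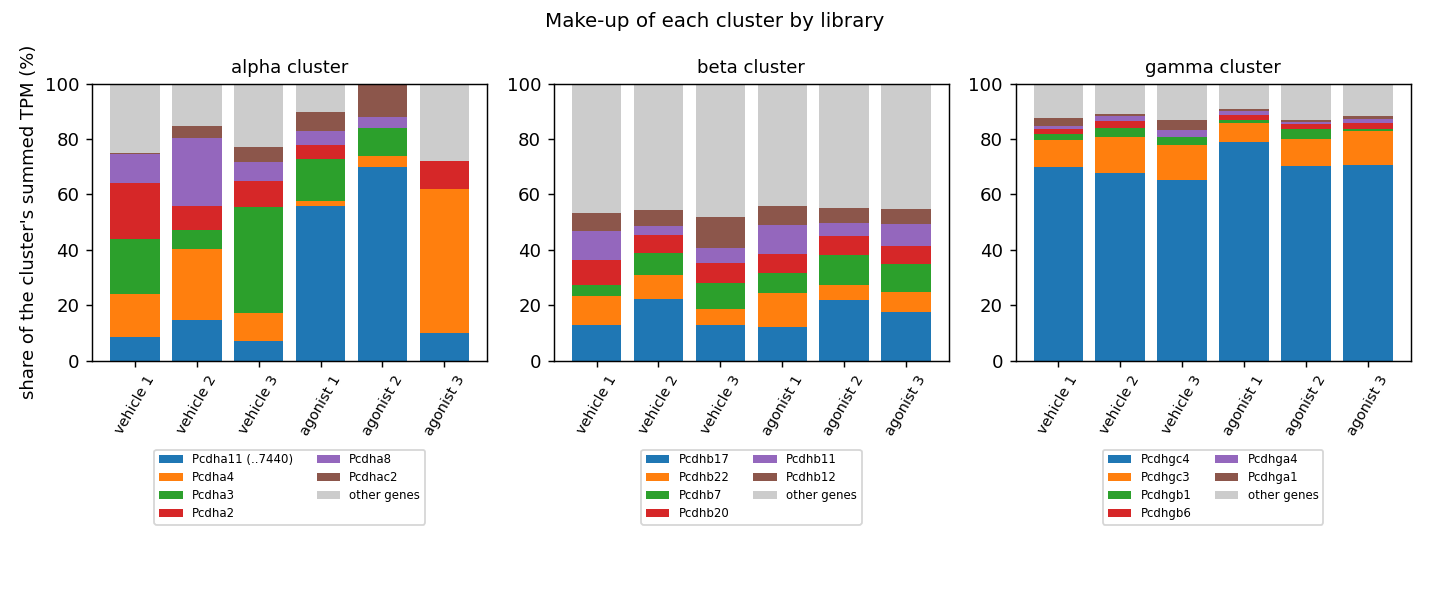
Share of each array's summed TPM (vertical axis, percent) taken by its 6 leading genes and by the others in grey, in the 6 libraries. The leading alpha gene changes between libraries, whereas Pcdhb17 or Pcdhb22 leads beta and Pcdhgc4 leads gamma with 65.3% to 79.1% in each.

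The beta genes were spread broadly, with 20 to 22 of 22 at 3 or more counts in every library and 5 or 6 genes made up 50% of the beta TPM. Of the 22, 19 had a lower mean with the agonist and 3 a higher one, and the median log2 ratio was -0.39. The agonist libraries lay below the vehicle libraries for Pcdhb1 alone, which had 22, 2 and 2 counts with vehicle and 0, 0 and 2 with the agonist, so that the separation rests on 2 counts in each of 3 libraries. Pcdhb17, the beta gene with the highest mean TPM, had 9.88, 9.46 and 12.2 CPM with vehicle and 8.31, 9.61 and 11.1 CPM with the agonist. The groups overlapped and the log2 ratio was -0.12. Pcdhb22 had 11.5, 4.65 and 6.11 CPM with vehicle and 8.10, 3.48 and 5.50 CPM with the agonist, again with overlap. Its log2 ratio was -0.38, and 0.08 without vehicle 1.

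Pcdhb7 had 2.32, 2.5 and 6.66 CPM with vehicle and 3.61, 3.51 and 4.63 CPM with the agonist, a log2 ratio of 0.03 that became 0.70 without vehicle 3 and -0.01 with TMM scaling. Vehicle 3 was the highest and the other vehicle libraries were the lowest of the 6. Pcdhb12, which overlaps an antisense gene, had 3.27, 1.48 and 6.79 CPM with vehicle and 3.04, 1.49 and 2.25 CPM with the agonist. Its log2 ratio was -0.77, and -0.07 without vehicle 3. Among the 20 beta genes that passed the low-count filter the log2 ratios ran from -0.91 for Pcdhb15 to 0.22 for Pcdhb18. Pcdhb15 had 3.24, 0.675 and 3.29 CPM with vehicle and 1.91, 0.921 and 0.990 CPM with the agonist, so that vehicle 2 was the lowest library of all.

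The gamma array was the most abundant on the TPM scale, at 26.9 to 49.2 TPM with vehicle and 23.4 to 33.2 TPM with the agonist, and Pcdhgc4 made up most of it. Of its 22 genes, 16 had a lower mean CPM with the agonist and 6 a higher one, and the median log2 ratio was -0.52. The A genes summed to 14.3 ± 5.75 CPM with vehicle and 9.26 ± 0.954 CPM with the agonist, and the B genes to 13.3 ± 2.29 and 9.22 ± 4.11 CPM (SD, n = 3 each). For neither subclass were the groups apart. Without Pcdhgc4 the gamma sum was 56.2, 37.4 and 44 CPM with vehicle and 24.8, 37.6 and 26.8 CPM with the agonist, a log2 ratio of -0.62 with agonist 2 above vehicle 2.

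Of the gamma genes outside the C-type, Pcdhga1 had the lowest log2 ratio, -2.11. It had 4.79, 0.722 and 4.0 CPM with vehicle and 0.625, 0.671 and 0.905 CPM with the agonist, so vehicle 1 and vehicle 3 were high and vehicle 2 lay among the agonist libraries. Pcdhgb1 had 4.67, 4.15 and 3.77 CPM with vehicle and 1.60, 4.64 and 0.765 CPM with the agonist. Its vehicle libraries were close together at 4.20 ± 0.454 CPM (SD, n = 3), and agonist 2 alone reached them, for a log2 ratio of -0.84 that became -1.83 without agonist 2. At the other end, Pcdhga9 and Pcdhga7 had the highest log2 ratios of the array, 0.46 and 0.40, and for both the groups overlapped.

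**Figure D4:**
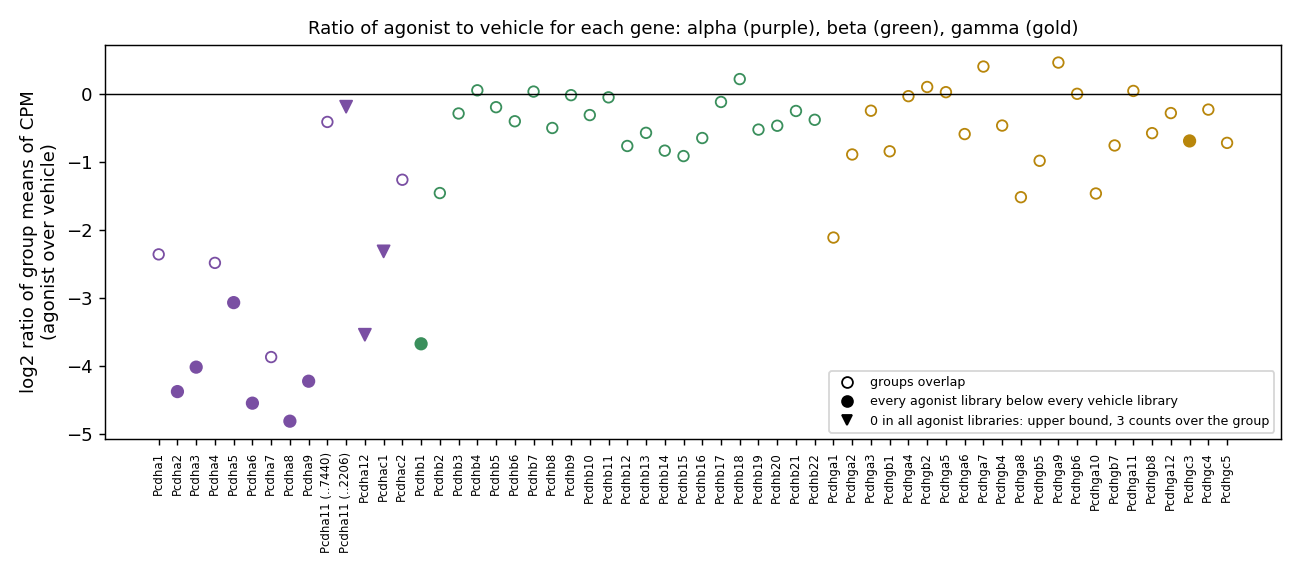
Log2 ratio of the agonist to the vehicle mean of CPM (vertical axis) for each member in order along the arrays, alpha in purple, beta in green and gamma in gold. Filled circles mark genes with every agonist library below every vehicle library, open circles overlap, and triangles the 3 genes at 0 in all agonist libraries, drawn at the bound that 3 counts give. Alpha genes reach -4.81, beta genes other than Pcdhb1 and Pcdhb2 lie between -0.91 and 0.22, and gamma genes between -2.11 and 0.46.

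The C-type genes, the 5 that close the alpha and gamma arrays, held very unequal levels. Pcdhgc4, which in mice is needed for the survival of neurons, was the highest member in every library, with 34.4, 18.3 and 22.9 TPM with vehicle and 23.6, 23.3 and 16.5 TPM with the agonist. On the count scale its levels were 61.6, 38.1 and 42.2 CPM with vehicle and 46.2, 42.8 and 31.9 CPM with the agonist, and the groups overlapped. Its log2 ratio was -0.23, and 0.01 without vehicle 1. It took 67.7 ± 2.29% of the gamma TPM with vehicle and 73.3 ± 4.97% with the agonist (SD, n = 3 each). The deposited length of Pcdhgc4, an average of its transcripts weighted by abundance, was 2292 to 2313 bases, near its shortest model of 2272 bases and far from the others of 3100 and 5024. From these lengths the shortest model made up at least 95.1% to 97.6% of its estimated transcripts, depending on the library. Of the 2272 bases of that model, 2119 are constant exons that other gamma genes share, so the level given for Pcdhgc4 depends on how shared reads were divided.

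Pcdhgc3, the second gamma gene by TPM, was the one gamma member whose groups did not overlap. In the models Pcdhgc3 shares part of its first exon with an antisense gene, BC037039. Pcdhgc3 had 18.2, 14.8 and 16.1 CPM with vehicle and 7.62, 11.8 and 11 CPM with the agonist. Its means were 16.4 ± 1.71 and 10.1 ± 2.22 CPM (SD, n = 3 each), 1.62-fold lower with the agonist, and vehicle 2 and agonist 2 were the closest pair. Pcdhgc5 had 2.30, 1.86 and 1.49 CPM with vehicle and 1.06, 1.52 and 0.842 CPM with the agonist. Agonist 2 lay just above vehicle 3, and the log2 ratio was -0.72. In the alpha array, Pcdhac2 had 7.37, 16.1 and 24.4 counts with vehicle and 7.07, 11.9 and 0 with the agonist, with overlap and a log2 ratio of -1.26, or -2.02 without agonist 2. Pcdhac1 had 4.12, 0 and 11.5 counts with vehicle and 0 in all agonist libraries. As vehicle 2 was also at 0, its groups overlapped, and against 3 counts over the agonist group it was at least 4.98-fold lower.

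Markers of the cells that express protocadherins elsewhere were read beside these values. Of 12 neuronal markers Snap25 was at 0 in all libraries, and the others summed to 2.59 to 8.78 CPM with vehicle and 4.43 to 6.30 CPM with the agonist. The 11 Schwann cell markers summed to 551 to 989 CPM with vehicle and 369 to 541 CPM with the agonist, without overlap. Most of that sum was Sox10, at 828.4, 403 and 701 CPM with vehicle and 226, 430 and 349 CPM with the agonist. Sox10 was also highest in vehicle 1, as the alpha sum was. Among the agonist libraries the match did not hold. Sox10 was lowest in agonist 1, where the alpha sum was highest, at 2.82 CPM. Sox10 was also higher in agonist 2 than in vehicle 2, where the alpha sums were 2.31 and 8.21 CPM. The log2 fold change of Sox10 was -0.97 ± 0.31 (SE, edgeR adjusted p = 0.99). The part of these cells in the alpha difference was not tested.

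Stromal content varied as much within the groups as between them. The 12 fibroblast markers summed to 2404, 6616 and 585 CPM in vehicle 1, 2 and 3 and to 3215 to 5107 CPM with the agonist. Immune markers summed to 54.6 to 198 CPM with vehicle and 134 to 142 CPM with the agonist, and endothelial markers to 32.7 to 73.7 and 54.3 to 81.6 CPM. Vehicle 3 was the lowest library for each of these lists. Myoepithelial markers summed to 62.0 to 213 CPM with vehicle and 184 to 543 CPM with the agonist, with agonist 3 the highest. The 9 luminal epithelial markers summed to 4093 to 4356 CPM with vehicle and 3739 to 4049 CPM with the agonist, without overlap. One by one, 3 of the 9 had a positive and 6 a negative log2 fold change, and none was called. Only 2 of the 9 were without overlap, both lower, beside 2.36% of all genes tested. The beta sum was lowest in vehicle 2, where fibroblast markers were highest, and highest in vehicle 3, where they were lowest. Among the agonist libraries the order ran the other way. Agonist 2 had the lowest beta sum and the lowest fibroblast sum of its group, and agonist 1 the highest of both. The part of stromal content in the beta sum was not tested.

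The genes for proteins that choose and silence these promoters were all expressed as RNA, and the test called none of them. Of 23 regulators, all 23 passed the low-count filter, 15 had a positive and 8 a negative log2 fold change, and the median was 0.05, against -0.005 over all genes tested. Ctcf, the insulator protein that brings promoter and enhancer together, had 73.5, 68.8 and 74.0 CPM with vehicle and 74.7, 76.7 and 87.5 CPM with the agonist. The agonist libraries all lay above the vehicle libraries, and the log2 fold change was 0.10 ± 0.13 (SE, edgeR adjusted p = 0.99). Smc3, a cohesin subunit, had 110, 111 and 107 CPM with vehicle and 127, 118 and 138 CPM with the agonist, a log2 fold change of 0.19 ± 0.14 (SE). Ctcf and Smc3 were the 2 of 23 regulators without overlap, both higher with the agonist, beside 5.93% of all genes tested in that state.

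The log2 fold changes of the genes for other cohesin proteins were 0.05 ± 0.15 for Rad21, 0.26 ± 0.17 for Stag1 and, for Wapl, which releases cohesin from DNA, 0.08 ± 0.17 (SE). Those of Rad21 and Wapl turned negative without vehicle 1. Smchd1, a chromatin repressor known to act at these arrays, had a log2 fold change of 0.19 ± 0.16 (SE). Dnmt3b, the methyltransferase that methylates the variable promoters, had 9.63, 10.5 and 11.3 CPM with vehicle and 7.57, 10.9 and 11.8 CPM with the agonist. Its log2 fold change was -0.10 ± 0.25 (SE), and 0.07 without agonist 1. Tet2, an enzyme of DNA demethylation, had a log2 fold change of -0.36 ± 0.23 (SE), with 62.4, 43.8 and 75.7 CPM with vehicle and 36.8, 57.7 and 50.9 CPM with the agonist. All these genes had an edgeR adjusted p of 0.99.

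Genes for proteins that act with or downstream of the clustered protocadherins were called in no case either. Of 23, 14 had a positive and 9 a negative log2 fold change, and the median was 0.06. Ptk2b, the focal adhesion kinase relative PYK2 that the shared cytoplasmic tails bind and inhibit, had 40.7, 23.2 and 25.6 CPM with vehicle and 22.3, 13.8 and 17.8 CPM with the agonist. Its groups did not overlap, with vehicle 2 just above agonist 1, and its log2 fold change was -0.76 ± 0.26 (SE, edgeR adjusted p = 0.99). Axin1, a scaffold of Wnt signalling that binds a gamma protocadherin, was apart in the same direction, at -0.33 ± 0.14 (SE). Abi2, a subunit of the WAVE complex that alpha protocadherins recruit, had a log2 fold change of 0.31 ± 0.17 (SE). For Axin1 and Abi2 too the edgeR adjusted p was 0.99. Wasf1, another WAVE subunit, was also apart and lower, at 4.77, 3.70 and 3.79 CPM with vehicle and 3.58, 2.57 and 1.88 CPM with the agonist. Adam10, a protease that sheds cadherins from the cell surface, was apart the other way, with 139, 145 and 129 CPM with vehicle and 148, 151 and 176 CPM with the agonist. Partners without overlap were thus 3 of 23 lower and 1 of 23 higher, beside 2.36% and 5.93% of all genes tested.

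Protocadherins outside the clusters were tested as genes that the choice of members did not use. Of 12 listed, 10 passed the filter, 8 with a negative and 2 with a positive log2 fold change, and the median was -0.29. Pcdh1, which lies beyond the gamma array on chromosome 18 and is expressed in epithelium, had 53.9, 31.3 and 33.0 CPM with vehicle and 27.8, 31.4 and 22.0 CPM with the agonist. Vehicle 1 was high and agonist 2 lay above vehicle 2. Its log2 fold change was -0.57 ± 0.23 (SE, edgeR adjusted p = 0.99). Pcdh10 and Pcdh17 were at 0.352 to 1.43 CPM and 0.352 to 1.25 CPM over all libraries, with log2 fold changes of -0.76 ± 0.64 and -0.58 ± 0.63 (SE). In both vehicle 2 was the highest library, and both values turned positive without it.

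The genes that flank the arrays were called in no case. Of 19 neighbours, 11 had a positive and 8 a negative log2 fold change, and the median was 0.03. Taf7, a subunit of general transcription factor TFIID encoded between the beta and gamma arrays on the opposite strand, had 27.6, 28.7 and 27.1 CPM with vehicle and 43.7, 29.1 and 35.7 CPM with the agonist. It was the 1 neighbour of 19 without overlap, beside 5.93% of all genes tested, in the direction opposite to that of the alpha sum, and its log2 fold change was 0.34 ± 0.18 (SE, edgeR adjusted p = 0.99). Diaph1, an actin nucleator just beyond the gamma array, and Slc35a4, before the alpha array, had log2 fold changes of -0.15 ± 0.15 each (SE). The edgeR adjusted p was 0.99 for both.

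Of 17 other cadherins, 12 were tested, 8 with a positive and 4 with a negative log2 fold change, and none was called. Celsr2, a cadherin of planar cell polarity, had 283, 199 and 266 CPM with vehicle and 121, 188 and 166 CPM with the agonist. It was the 1 cadherin of the 12 without overlap, beside 2.36% of all genes tested, and the log2 fold change was -0.69 ± 0.20 (SE, edgeR adjusted p = 0.99). Cdh2, the neural and mesenchymal cadherin, had a log2 fold change of 1.51 ± 0.91 (SE) that rested on agonist 3, at 8.95 CPM against 0.615 to 1.78 in the other libraries, and was -0.11 without it. Fat4, a large atypical cadherin, had a log2 fold change of 0.70 ± 0.51 (SE), and 1.302 without vehicle 2. For Cdh2 and Fat4 as well the edgeR adjusted p was 0.99.

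**Figure D5:**
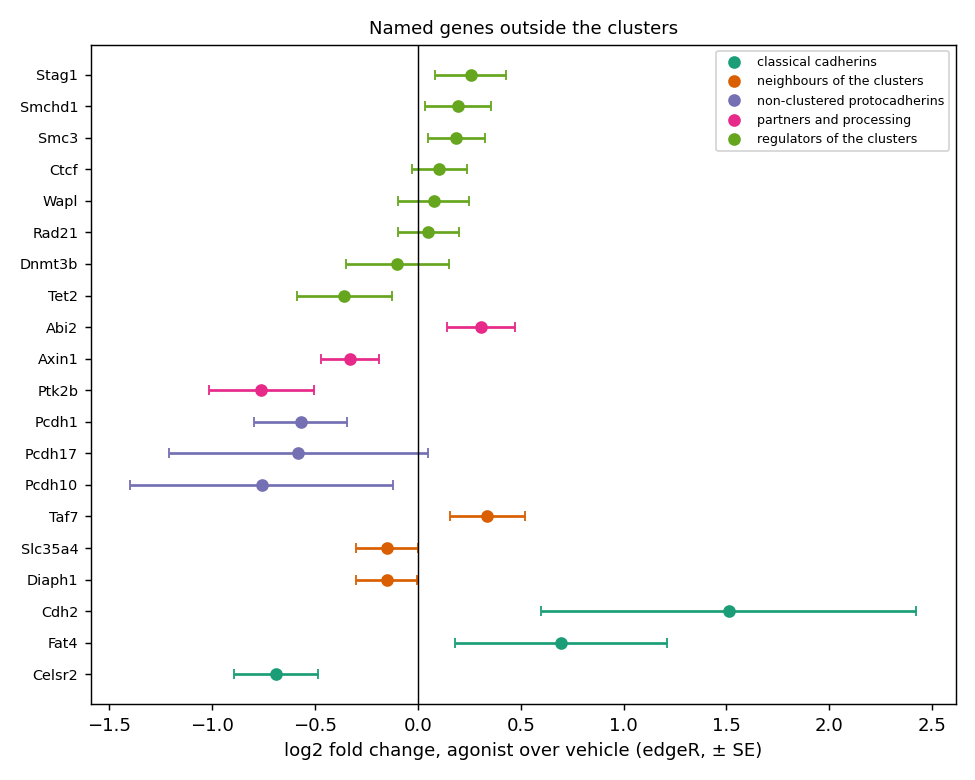
Log2 fold change of agonist over vehicle with its SE from edgeR (horizontal axis) for 20 named genes outside the arrays, coloured by list. The values run from -0.76 for Ptk2b and Pcdh10 to 1.51 for Cdh2, and none of them passed the test at an adjusted p under 0.05.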

How the data were processed

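Total RNA of mammary tumour tissue was sequenced in 6 libraries. Per the submitters' processing notes, the tools were STAR 2.7.9a, RSEM 1.3.1, cutadapt 3.5, FastQC 0.11.9, R 4.1 and DESeq2 1.36.0, with GRCm38. Annotation release, strand setting and read filters: not given in the sources used here. The deposited tables hold expected counts, which RSEM estimates and which need not be whole, and TPM, which the authors' RSEM run computed with correction for length. All 58 members were found in GENCODE M21, and the deposited lengths of the 36 with 1 transcript equalled the M21 lengths. The deposited transcripts were those of M21 for 57 members, but not for Pcdhgb8. Of the 55487 row identifiers, 55227 were found in M21. CPM are expected counts per 1000000 of the library total, so that members that fail the low-count filter also enter. At this depth 3 counts are 0.0704 to 0.0820 CPM, a floor that covers counting error and not the copying of molecules by PCR.

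Member ratios are log2 ratios of group means of CPM, without a test. Genes outside the arrays were tested on rounded expected counts with edgeR 4.0.16 in R 4.3.3 (TMM, filterByExpr with a minimum count of 10 and a total of 15, robust quasi-likelihood F test, no covariates), with Benjamini-Hochberg adjustment over 17396 genes. The fit was tested on simulated data. DESeq2 1.42.0, limma 3.58.1, other scalings, filters, the deposited TPM and leaving out each library were alternatives. Genes named are, per array, the 4 with the highest mean TPM, the C-type genes, Pcdha8 and the members without overlap with 10 or more counts in 3 libraries, and, per gene list, the 3 with the lowest p together with Ctcf, Rad21, Smchd1, Dnmt3b and Wapl. Other members named were chosen after their values were seen, as were Sox10, Wasf1 and Adam10. Members and lists were chosen with earlier results of these data known. After the results were seen, Relch, which lies on another chromosome, was found in the list of neighbours by mistake and replaced with Rell2.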

Additional observations from a re-analysis of the deposited data

How the results depend on the processing

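The alpha sum kept its sign in 13 of 13 alternatives, with log2 ratios of -3.51 to -1.87, the beta sum in 12 of 12, with -0.57 to -0.07, and the gamma sum in 13 of 13, with -0.62 to -0.21. Leaving out 1 library at a time gave -3.01 to -1.87 for alpha, -0.57 to -0.07 for beta and -0.54 to -0.21 for gamma. As the alpha groups did not overlap, neither leaving out a library nor pairing same-numbered libraries could have turned the alpha sign. The arrays were also chosen on this difference, so nothing is read from the signs kept. The alternatives without Pcdhgc4 and without the Pcdha11 row ENSMUSG00000007440 were added after seeing the data. The number of members with all agonist libraries below all vehicle libraries, 9 of 58, was 5 among the 48 that pass the filter, as fewer genes then enter, and 11 to 24 without 1 library in turn. The number above, 0, was 1 with the deposited TPM (Pcdhga7), and without 1 library in turn 0 to 3 (Pcdhga9 without agonist 1, Pcdhga7 without vehicle 1, and Pcdhb3, Pcdhb7 and Pcdhgb2 without vehicle 3). With fewer libraries the groups come apart more easily for any gene. Without vehicle 2 the share of all genes tested that were lower was 15.1%, against 2.36% with all libraries. Shares for the other libraries left out and for the deposited TPM were not computed, so nothing is read from these changes. The cause was not tested. The count of genes called was 0 in every edgeR and limma setting and without each library, and 8 with the DESeq2 Wald test, 3 higher and 5 lower. Genes at an unadjusted p under 0.05, 538 with edgeR, were 315 without agonist 3, 2442 without vehicle 2, 847 without a low-count filter and 1211 with limma-voom.

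Of 170 alternative values for 16 named members, 169 moved by less than the error of the ratio, which is wide, at 2.26 on the log2 scale for Pcdha2. The ratio kept 1 sign in 11 of the 16 and changed it under at least 1 alternative in the other 5: the Pcdha11 row ENSMUSG00000007440 (-0.76 to 0.25), Pcdhb7 (-0.23 to 0.70), Pcdhb17 (-0.23 to 0.000814), Pcdhb22 (-0.72 to 0.0817) and Pcdhgc4 (-0.37 to 0.00523). Of 298 for 20 named genes outside the arrays, 7 turned their sign: Cdh2 without agonist 3, Pcdh10 and Pcdh17 without vehicle 2, Rad21 and Wapl without vehicle 1, Dnmt3b without agonist 1, and Pcdh17 with limma-voom (0.0239). Leaving out 1 library at a time, their log2 fold changes ran from -0.11 to 1.99 for Cdh2, -1.12 to 0.19 for Pcdh10, -0.91 to 0.28 for Pcdh17, -0.00775 to 0.115 for Rad21, -0.0384 to 0.245 for Wapl and -0.23 to 0.0684 for Dnmt3b. The cause was not tested. A replicate block on the replicate numbers of the titles gave log2 ratios of -2.46 for alpha, -0.26 for beta and -0.40 for gamma and 0 genes called. Deviations of same-numbered libraries had correlations of 0.17, 0.04 and 0.06, and those of the other pairs ran from -0.108 to 0.0552. With so few libraries these values cannot decide whether same-numbered libraries were paired. At these totals 7 of 14 alpha, 20 of 22 beta and 21 of 22 gamma genes passed the low-count filter. A level under 0.0704 to 0.0820 CPM in a single library lay below the floor of 3 counts. Some members had values above 0 under that floor, such as Pcdhb1 at 2 counts.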

Other observations

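Rows within the alpha array that are not protocadherin genes were read after their values were seen. The unprocessed pseudogene Gm36858, on the same strand within the alpha array, had 38, 0 and 24.8 counts with vehicle and 1, 1 and 3 with the agonist, so vehicle 1 and vehicle 3 were high and vehicle 2 was below the agonist libraries. The antisense gene Gm10545, on the opposite strand, had 18, 22.8 and 4.1 counts with vehicle and 4, 7.06 and 3 with the agonist, and its groups overlapped. In the gamma array the antisense gene BC037039 had 87.4, 51.0 and 87.2 counts with vehicle and 81.7, 49.6 and 47.8 with the agonist, also with overlap. Slc25a2, a mitochondrial carrier gene between the beta and gamma arrays, had 16, 13 and 7 counts with vehicle and 28, 1 and 7 with the agonist.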
